A study of Mus musculus with 9 samples.

Results

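Genes of the Wnt signalling system that act at or near the cell surface were followed in the mouse submandibular salivary gland after part of the gland had been removed. The set was chosen by gene symbol: all Wnt ligands, Frizzled receptors, secreted frizzled-related proteins, Dickkopf proteins and R-spondins, with their co-receptors, feedback inhibitors and a pair of transcription factors. Of the 56 symbols that this names, 54 were measured, each by 1 transcript cluster, out of 19505 genes with a symbol and 22206 transcript clusters tested. Rnf43 and Tcf7 were not analysed here. A transcript cluster is the array's unit for the transcripts of a gene.

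The glands came from 12-week-old female C57BL6/J mice, and RNA was hybridised to Clariom S arrays. The 3 groups were mock surgery with the gland taken on day 3, partial resection with 3 days of healing, and partial resection with 14 days of healing, each with 3 biological replicates. The mock group was taken on day 3 only, so at day 14 resection and time since surgery cannot be told apart. All values are on the deposited log2 scale, and differences are between group means, given ± standard error (SE). The deposited values reached 19.93, higher than the log2 of a scanner intensity usually runs. The scale may therefore have been stretched at a step not given in the sources used here, and a difference of 1 unit cannot be read as an exact doubling.

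Wnt proteins are secreted, lipid-modified ligands. When a ligand binds a Frizzled receptor together with the co-receptor Lrp5 or Lrp6, β-catenin is stabilised and acts in the nucleus with factors of the TCF/LEF family. R-spondins raise the number of receptors at the surface through Lgr4, Lgr5 and Lgr6, whereas Sfrp proteins, Frzb and Wif1 bind ligands outside the cell and Dickkopf proteins such as Dkk1 block the co-receptors. Axin2 is a target of the pathway and one of its brakes. In salivary glands, Wnt signalling is known for its part in the branching and duct formation of the embryonic gland.

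The arrays correlated at 0.985 to 0.990 within groups across transcript clusters. The median of the rows named as negative controls was 4.57 over all arrays and their 95th percentile was 8.39. All 5 acinar markers read above that percentile on all 9 arrays, and Prol1 and Pip read 19.92 to 19.93, the top of the range, where a change could not show. The mean of 5 skeletal muscle markers was 3.49 to 3.94. Of the 54 members, 23 lay below that median on all 9 arrays and 19 above it on all 9, and 46 exceeded the 95th percentile on 0 arrays. Many members were therefore read near the array's background. The median of the negative controls was itself 0.25 higher after 3 days of healing than after mock surgery (p = 0.1 by an exact two-sided permutation test, whose floor with 3 arrays a group is also 0.1).

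On day 3, the secreted antagonists Sfrp2 and Sfrp4 rose strongly in resected glands, and the other 52 members did not pass the test. Sfrp4 was 4.44 ± 0.36 log2 units higher and Sfrp2 3.70 ± 0.35 higher than in mock glands. By day 14 both were lower than on day 3, and Sfrp4 was still 2.21 ± 0.36 above mock, although that call was fragile. The only other call was a difference in the receptor Fzd9 between the resected groups. Across all transcript clusters, 6.27% passed the threshold of 0.05 on day 3 against mock (4.92% higher and 1.36% lower), and 18.6% had an unadjusted p under 0.05 against 7 of 54 members, so 2 of 54 members is no larger a share than the array as a whole gave. For day 14 against mock the share over all transcript clusters was 0.153% (0.0991% higher and 0.054% lower), with 1 of 54 members, higher. An unadjusted p under 0.05 was found there for 8.18% of all and 3 of 54 members. For day 14 against day 3 the called share was 6.28% (1.4% higher and 4.88% lower), with 3 of 54 members (1 higher and 2 lower), and the share at an unadjusted p under 0.05 was 18.9%, with 9 of 54. The median difference of the members was -0.06 on day 3 and 0.07 on day 14, against -0.06 and 0.00 over all transcript clusters.

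**Figure D1:**
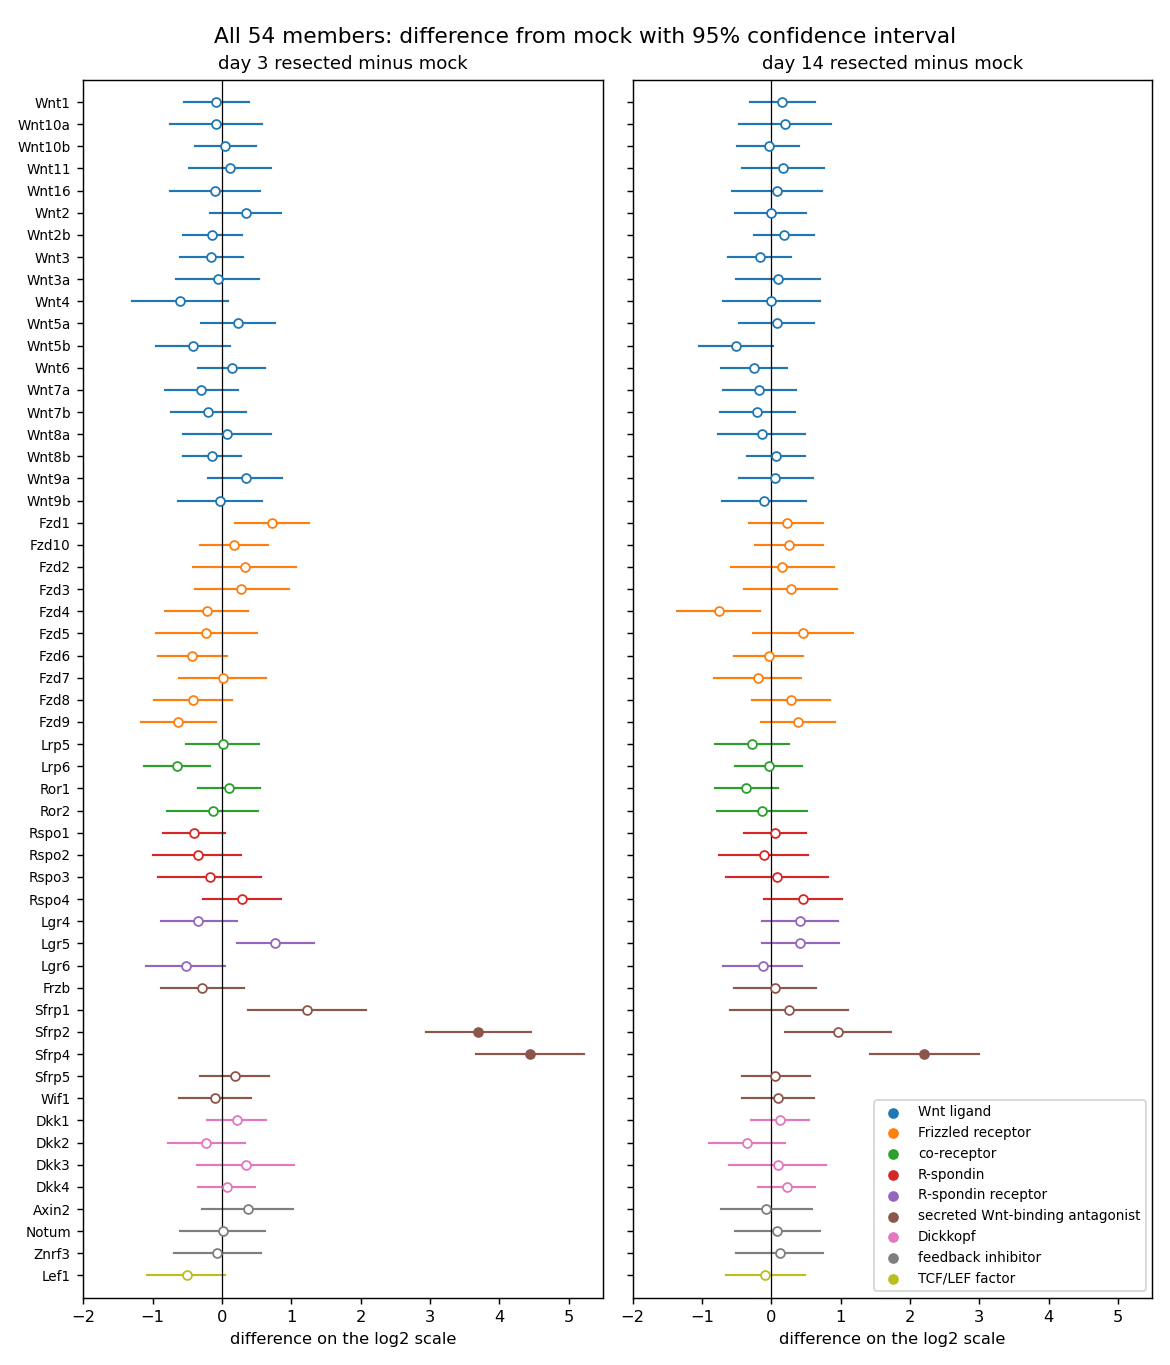
Difference from mock on the log2 scale (horizontal axis) for each of the 54 members (rows, coloured by role), on day 3 at left and day 14 at right; lines are 95% confidence intervals from limma and filled points passed an adjusted p of 0.05. Sfrp2 and Sfrp4 stand at 3.70 and 4.44 on day 3, Sfrp4 is filled at 2.21 on day 14, and the remaining points lie between -0.76 and 1.23.

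The sequence just upstream of the gene start is shown for the called members that have an entry in the RefSeq promoter table (GRCm38.p6), Sfrp2 and Fzd9, because these moved in opposite directions between the days. Each line gives the 250 bases before the start, 5′ to 3′ on the gene's own strand. Capitals mark matches to any of 7 short motifs searched on both strands. Sfrp2 lies at chr3:83766071-83766320 (plus strand) and Fzd9 at chr5:135251048-135251297 (minus strand).
Sfrp2: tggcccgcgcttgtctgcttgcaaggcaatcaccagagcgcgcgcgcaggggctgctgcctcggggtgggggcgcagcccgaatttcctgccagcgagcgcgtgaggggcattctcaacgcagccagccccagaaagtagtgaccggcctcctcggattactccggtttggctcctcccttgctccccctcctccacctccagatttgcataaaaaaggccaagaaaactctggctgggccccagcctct
Fzd9: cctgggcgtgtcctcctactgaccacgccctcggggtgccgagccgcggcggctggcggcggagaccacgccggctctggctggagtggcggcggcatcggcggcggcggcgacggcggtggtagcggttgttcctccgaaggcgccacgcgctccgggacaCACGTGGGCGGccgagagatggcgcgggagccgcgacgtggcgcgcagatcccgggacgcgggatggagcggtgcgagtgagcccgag

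The motifs were the TATA box TATAAA, the GC box GGGCGG, the CCAAT box, the E-box CACGTG, the AP-1 site TGANTCA, and CTTTGAT and CTTTGAA, which are forms of the TCF/LEF site. The Sfrp2 window held 0 of them. The Fzd9 window held an E-box at bases -88 to -83 and a GC box at bases -83 to -78 before the start, which share a base. Over 32851 promoter windows of this length, CACGTG was found in 6.02%, GGGCGG in 32.7%, CCAAT in 33.8%, TATAAA in 12.4%, TGANTCA in 6.75%, CTTTGAT in 3.21% and CTTTGAA in 4.46%. Among 41 windows of the 35 members with an entry, GGGCGG was found in 30 and CACGTG in 5 (Fzd9, Lef1, Rspo4, Wif1 and Wnt9a). In the same windows CTTTGAT was found in 2 (Wnt5b and Wnt11) and CTTTGAA in 1 (Dkk1). Guanine and cytosine made up 63.6% of the Sfrp2 window and 76.4% of the Fzd9 window, against a median of 66.4% for the members' windows and 52.4% for all. A match is a description of the letters and does not show binding.

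Sfrp2 and Sfrp4 encode secreted proteins with a Frizzled-like domain that binds Wnt ligands. Sfrp2 read 6.43, 6.12 and 5.66 on the mock arrays, 8.84, 10.39 and 10.07 on those of day 3 resected glands, then 7.21, 6.88 and 6.98 on the day 14 resected arrays. All 3 day 3 values lay above all others, and the day 14 values lay above all mock values. The day 3 rise had an adjusted p of 4.6e-05 and was the 53rd largest difference among the 22206 transcript clusters. Between day 3 and day 14, Sfrp2 fell by 2.74 ± 0.35 (adjusted p = 3.05e-04). On day 14 it was 0.96 ± 0.35 above mock, which did not pass (adjusted p = 0.510; 95% interval 0.20 to 1.72).

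Sfrp4 read 4.66, 4.85 and 4.16 on the mock arrays, 8.91, 8.26 and 9.82 on those of day 3 resected glands, then 7.23, 6.44 and 6.61 on the day 14 resected arrays. The 3 groups did not overlap, and the mock values lay around the median of the negative controls. Since the mock mean of 4.56 was at background, the differences from mock are no exact measure of the change. The day 3 rise had an adjusted p of 1.43e-05, and the level fell by 2.23 ± 0.36 from day 3 to day 14 (adjusted p = 0.00183). The day 14 difference from mock passed with an adjusted p of 0.0328. That call was lost in each of the 6 fits without 1 mock or day 14 resected array (adjusted p 0.0784 to 0.194), without day 3 resected replicate 1 (0.0612), with array weights (0.0530) and with the replicate block (0.0662). The difference itself stayed between 1.97 and 2.36 in these fits.

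The day 3 resected arrays were not in the same order for both genes: Sfrp2 was lowest in replicate 1 and highest in replicate 2, while Sfrp4 was lowest in replicate 2 and highest in replicate 3.

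Many genes marking fibroblasts and macrophages rose on day 3, as Sfrp2 and Sfrp4 did. Of 8 fibroblast markers 6 rose on day 3 and 0 fell, and their mean level ran from 9.93 to 10.53 on mock, 12.23 to 13.63 on day 3 resected and 10.83 to 11.35 on day 14 resected arrays. Of 5 macrophage markers 5 rose on day 3, with mean levels of 8.06 to 9.0, 11.72 to 12.26 and 9.03 to 9.38. On day 14 against mock, 0 of the 13 passed with limma, and 4 had an unadjusted p under 0.05 (3 fibroblast and 1 macrophage). From day 3 to day 14, 4 of 8 fibroblast markers fell and 4 did not pass, while 5 of 5 macrophage markers fell. Of 5 lymph node markers 2 rose on day 3, and from day 3 to day 14 1 fell and 1 rose. Cd3e, risen on day 3, and Cr2, risen afterwards, lay below the median of the negative controls on all 9 arrays. Of 5 T cell markers 1 rose on day 3 and 1 fell afterwards. Cxcl13 (3.17, then -3.3) and Il7r (1.6, then -1.25) were the lymphoid markers that did both. Some markers of the gland's own epithelium fell on day 3. Of 5 acinar markers 2 fell and 0 rose (Bhlha15 at -1.19 ± 0.31 and Slc12a2 at -1.15 ± 0.24). Of 4 duct markers 2 fell (Egf at -2.94 ± 0.59 and Scnn1g at -1.46 ± 0.27) and 1 rose (Krt19 at 1.04 ± 0.27). Krt19 exceeded the median of the negative controls on only 2 arrays. Adipocyte markers had 0 of 5 and endothelial markers 0 of 5 past the threshold on day 3, with unadjusted p under 0.05 for 0 and 1 of them. The part of any of these cell types in the Sfrp2 and Sfrp4 differences was not tested, and in whole-gland RNA more cells of a type and more RNA per cell cannot be told apart.

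**Figure D2:**
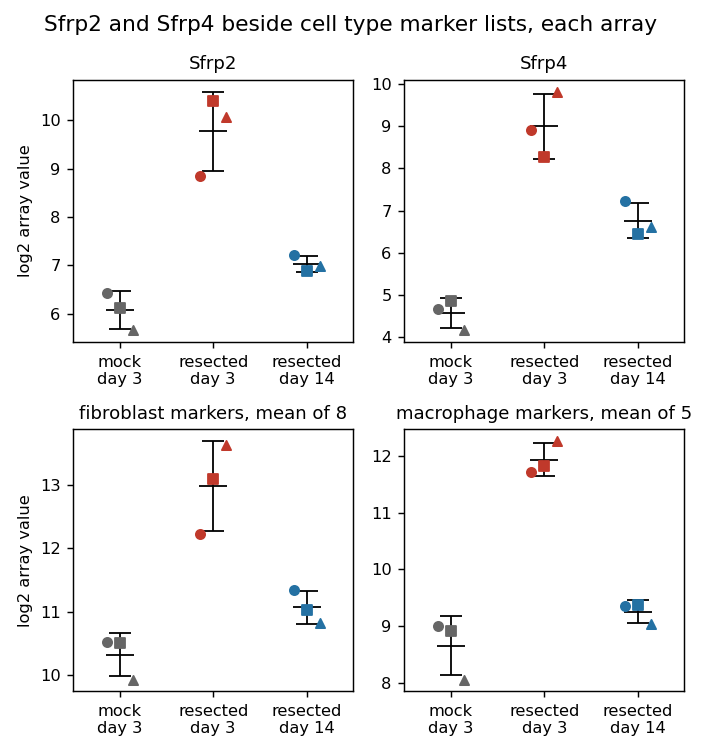
Log2 array value (vertical axis, its own range in each panel) of Sfrp2, Sfrp4, the mean of 8 fibroblast markers and the mean of 5 macrophage markers in the 3 groups; circles, squares and triangles are replicates 1, 2 and 3, and bars are mean ± SD (n = 3). In each panel the day 3 resected arrays lie above all others, and the fibroblast mean runs from 12.23 to 13.63 there against 9.93 to 10.53 in mock.

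The other Wnt-binding antagonists did not pass in any comparison. Sfrp1, a close relative of Sfrp2, read 6.04, 4.54 and 4.28 on mock, 6.62, 6.11 and 5.81 on day 3 resected and 5.01, 5.11 and 5.52 on day 14 resected arrays. Mock replicate 1 overlapped the day 3 values while the other mock arrays did not. The difference on day 3 was 1.23 ± 0.39 (adjusted p = 0.0956), and without mock replicate 1 it was 1.77 ± 0.29 (adjusted p = 0.00357).

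Wif1, which binds Wnt proteins through a domain of its own, read 4.82, 5.52 and 4.75 on mock, 4.74, 5.11 and 4.94 on day 3 resected and 5.16, 5.0 and 5.22 on day 14 resected arrays. Frzb, another frizzled-related protein, read 3.83, 3.23 and 3.12, then 3.04, 3.40 and 2.89, then 3.01, 3.86 and 3.47 in the same order of groups. For both genes the 3 groups overlapped. Sfrp5 ran from 3.11 to 3.77 over all arrays and differed from mock by 0.18 ± 0.23 on day 3 and 0.06 ± 0.23 on day 14. On day 3 the 95% interval was -0.62 to 0.42 for Wif1, -0.88 to 0.31 for Frzb and -0.32 to 0.68 for Sfrp5. Frzb and Sfrp5 lay below the median of the negative controls on every array, so their intervals say little about a change in RNA.

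**Figure D3:**
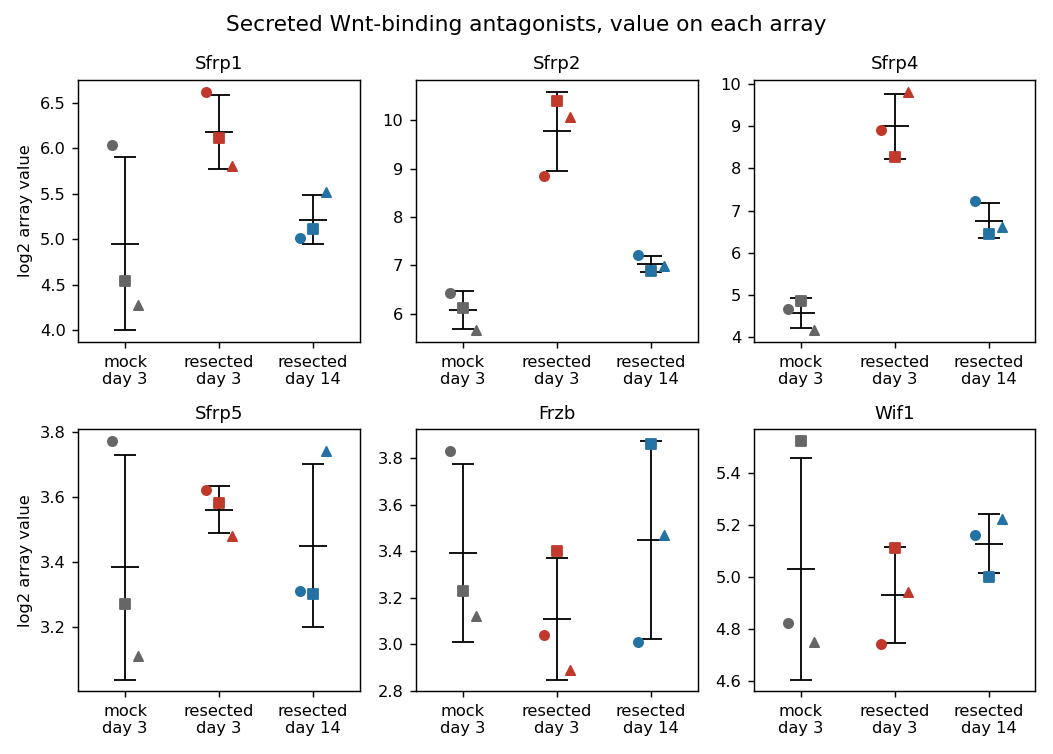
Log2 array value (vertical axis, its own range in each panel) of the 6 secreted Wnt-binding antagonists in the 3 groups; circles, squares and triangles are replicates 1, 2 and 3, and bars are mean ± SD (n = 3). Sfrp2 and Sfrp4 stand apart on day 3, Sfrp1 has a mock array at 6.04 among the resected values, and Sfrp5, Frzb and Wif1 overlap.

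Dickkopf genes showed no called difference: 0 of 4 passed in any comparison with limma, and 0 had an unadjusted p under 0.05. Dkk3, a divergent member of the family, read 5.6, 5.55 and 4.72 on mock, 5.87, 4.95 and 6.06 on day 3 resected and 5.62, 5.07 and 5.44 on day 14 resected arrays. Its groups overlapped, with a day 3 difference of 0.34 ± 0.32. Dkk1, Dkk2 and Dkk4 lay below the median of the negative controls on every array, and their differences from mock ran from -0.35 to 0.22 over both days.

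None of the 19 Wnt ligand genes passed in any of the 3 comparisons with limma, and 0 had an unadjusted p under 0.05. Of the 19, 15 lay below the median of the negative controls on all arrays, and Wnt4 alone lay above it on all 9. Wnt4, a ligand of epithelia in several organs, read 8.43, 7.91 and 8.60 on mock, 8.25, 6.88 and 7.98 on day 3 resected and 8.32, 8.31 and 8.32 on day 14 resected arrays. The low value of day 3 resected replicate 2 gave a difference of -0.61 ± 0.32 on day 3 (adjusted p = 0.340), and the day 14 values lay within the mock range.

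Wnt5a, a ligand best known for signalling without β-catenin, read 4.08, 4.88 and 4.76 on mock, 4.70, 4.57 and 5.14 on day 3 resected and 4.57, 4.72 and 4.66 on day 14 resected arrays. It differed from mock by 0.23 ± 0.25 on day 3 and 0.08 ± 0.25 on day 14, within the spread of the arrays. Wnt5b lay lower in all day 3 resected arrays (2.94 to 3.38) than in mock (3.48 to 3.92), at -0.42 ± 0.25 (adjusted p = 0.400). Over all ligands, differences from mock ran from -0.61 to 0.34 on day 3 and from -0.51 to 0.20 on day 14. The 95% intervals of the ligands reached no further than -1.30 and 0.87 on either day.

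Frizzled receptors were measured by 10 genes, 8 of them above the median of the negative controls on all arrays. On day 3 and on day 14 against mock, 0 of 10 passed with limma, and 2 and 1 had an unadjusted p under 0.05. Fzd9 read 5.64, 5.04 and 5.48 on mock, 5.14, 4.66 and 4.46 on day 3 resected and 5.73, 6.0 and 5.58 on day 14 resected arrays. The mock values overlapped both resected groups, whereas the resected groups did not overlap each other.

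From day 3 to day 14 Fzd9 rose by 1.01 ± 0.25 (adjusted p = 0.0279). Against mock it differed by -0.63 ± 0.25 on day 3 (adjusted p = 0.185) and by 0.38 ± 0.25 on day 14 (adjusted p = 0.729). The rise lost its call without day 3 resected replicate 2 (0.97, adjusted p = 0.0996) or 3 (0.87, 0.130) and without day 14 resected replicate 1 (1.03, 0.0738) or 2 (0.90, 0.111). In the same comparison 2 of 5 acinar markers rose (Bhlha15 by 1.38 and Slc12a2 by 1.11), with Aqp5 at -0.11 and Prol1 and Pip at the top of the range. Of 4 duct markers 2 rose (Egf by 2.83 and Scnn1g by 1.42), while Krt19 was at -0.70 (adjusted p = 0.171) and Krt7 at -0.12. Their part in the Fzd9 difference was not tested.

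Fzd1 read 5.55, 5.78 and 5.09 on mock, 6.41, 5.80 and 6.38 on day 3 resected and 5.6, 5.61 and 5.86 on day 14 resected arrays. Its day 3 values lay just above mock, at 0.72 ± 0.25 (adjusted p = 0.119). Fzd4, which also serves as the receptor of Norrin in vessels, ran from 6.90 to 7.95 on mock and from 6.28 to 6.96 on day 14 resected arrays. That difference of -0.76 ± 0.28 did not pass (adjusted p = 0.506). Fzd8 ran from 5.70 to 6.68 on day 3 resected and from 6.63 to 7.09 on day 14 resected arrays, a difference of 0.70 ± 0.26 (adjusted p = 0.156) that passed without day 3 resected replicate 1 (0.97 ± 0.24, adjusted p = 0.0329). Fzd2, Fzd3, Fzd5, Fzd6, Fzd7 and Fzd10 differed from mock by -0.43 to 0.46 over both days.

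The co-receptors had 0 of 4 members past the threshold in any comparison with limma, with 1, 0 and 2 at an unadjusted p under 0.05 in day 3 against mock, day 14 against mock and day 14 against day 3. Lrp6, which works with Frizzled in β-catenin signalling, was lower on all day 3 resected arrays (9.70 to 10.20) than on mock (10.35 to 10.75) and day 14 resected arrays (10.31 to 10.66). The difference of -0.65 ± 0.22 from mock did not pass (adjusted p = 0.115). It passed when only the 5298 brightest transcript clusters, those with a mean above the 95th percentile of the negative controls, were tested (adjusted p = 0.0487). Lrp5 ran from 7.84 to 8.29 on mock and from 7.96 to 8.24 on day 3 resected arrays.

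Ror2, a receptor tyrosine kinase for Wnt5a, read 4.37, 4.94 and 4.11 on mock, 4.60, 4.69 and 3.72 on day 3 resected and 4.02, 4.50 and 4.50 on day 14 resected arrays, and its groups overlapped. Its relative Ror1 ran from 5.11 to 5.21 on day 3 resected and from 4.56 to 5.0 on day 14 resected arrays. These did not overlap, but the difference of -0.46 ± 0.21 did not pass (adjusted p = 0.255).

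R-spondins had 0 of 4 members past the threshold in any comparison with limma, and 0, 0 and 1 with an unadjusted p under 0.05 in the same order of comparisons. Rspo3, which is made by stroma in several organs, read 6.10, 7.22 and 6.17 on mock, 6.05, 6.58 and 6.32 on day 3 resected and 6.03, 6.52 and 7.17 on day 14 resected arrays. A single high array in the mock and in the day 14 group set the upper end of its range. Rspo1 was lower on all day 3 resected arrays (5.03 to 5.21) than on mock (5.47 to 5.61), at -0.41 ± 0.21 (adjusted p = 0.322). Rspo2 and Rspo4 differed from mock by -0.35 to 0.46 over both days.

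Among the R-spondin receptors, 0 of 3 passed with limma in any comparison, and 1, 0 and 1 had an unadjusted p under 0.05 in the same order. Lgr5, a marker of stem cells in the intestine and other epithelia, read 2.99, 3.37 and 4.00 on mock, 4.21, 4.05 and 4.38 on day 3 resected and 3.97, 3.91 and 3.74 on day 14 resected arrays. The day 3 values lay above all mock values, but every value was below the median of the negative controls. The difference was 0.76 ± 0.26 (adjusted p = 0.114), and without mock replicate 3 it was 1.04 ± 0.23 (adjusted p = 0.0255). Lgr4 ran from 9.95 to 10.42 on mock, 9.53 to 10.16 on day 3 resected and 10.43 to 11.0 on day 14 resected arrays. Its difference between the resected groups was 0.76 ± 0.25 (adjusted p = 0.108). Lgr6 was at -0.52 ± 0.26 on day 3 and -0.12 ± 0.26 on day 14 against mock, with 95% intervals of -1.09 to 0.05 and -0.69 to 0.45.

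**Figure D4:**
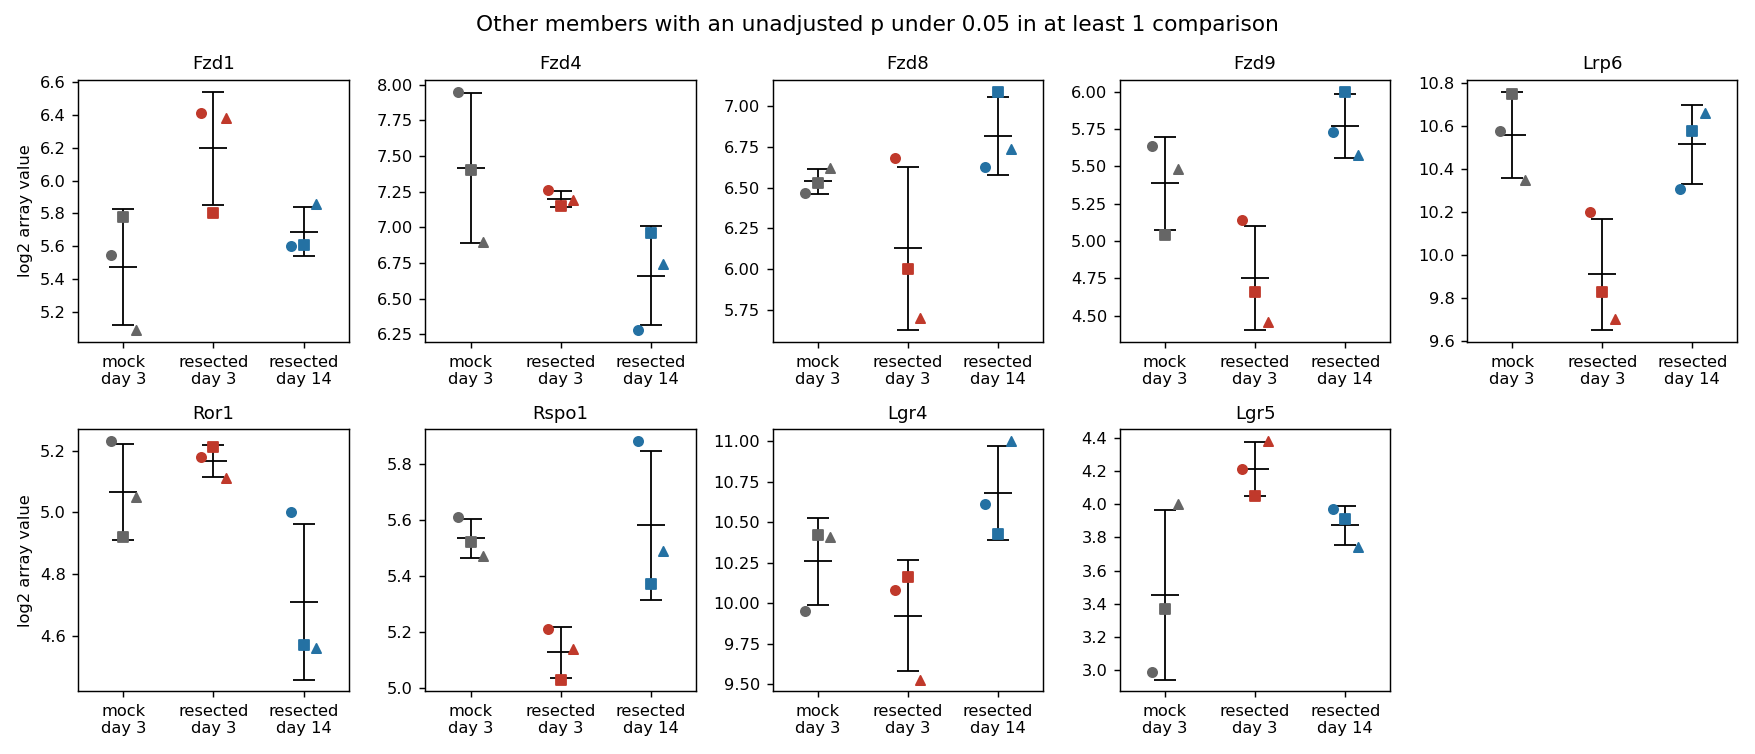
Log2 array value (vertical axis, its own range in each panel) of the 9 members outside the Sfrp family with an unadjusted p under 0.05 in at least 1 comparison; circles, squares and triangles are replicates 1, 2 and 3, and bars are mean ± SD (n = 3). Fzd9 alone passed after adjustment, with 4.46 to 5.14 on day 3 resected and 5.58 to 6.0 on day 14 resected arrays.

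The genes that report on pathway activity showed no called difference. Axin2 read 3.98, 3.83 and 4.43 on mock, 5.18, 4.13 and 4.03 on day 3 resected and 3.77, 4.22 and 4.02 on day 14 resected arrays. Day 3 resected replicate 1 was the highest and day 14 resected replicate 1 the lowest, and the other 4 resected arrays lay within the mock range. The difference was 0.37 ± 0.30 on day 3 (95% interval -0.29 to 1.03) and -0.08 ± 0.30 on day 14 (-0.73 to 0.58), and all but 1 of the 9 values lay below the median of the negative controls.

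Notum, an enzyme that removes the lipid from Wnt proteins, read 6.01, 5.49 and 6.27 on mock, 6.34, 5.93 and 5.53 on day 3 resected and 6.38, 5.93 and 5.71 on day 14 resected arrays. Znrf3, a ubiquitin ligase that removes Frizzled from the surface, ran from 8.08 to 8.95 on mock, 8.15 to 8.85 on day 3 resected and 8.17 to 8.90 on day 14 resected arrays. For both the 3 groups covered nearly the same range. Lef1, a nuclear partner of β-catenin, read 4.19, 3.52 and 3.24 on mock, 3.46, 2.94 and 3.01 on day 3 resected and 3.51, 3.66 and 3.53 on day 14 resected arrays. Its day 3 difference was -0.51 ± 0.26 (adjusted p = 0.324), and all 9 Lef1 values lay below the median of the negative controls. For these 4 genes, 0 passed with limma in any comparison and 0 had an unadjusted p under 0.05.

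Counted over all 54 members, 9 had day 3 resected arrays that did not overlap the mock arrays (4 above and 5 below), against 23.0% of all transcript clusters (11.2% above and 11.8% below). On day 14, 7 did not overlap mock, all of them above, against 13.0% (6.03% above and 6.99% below). Between the resected groups 15 did not overlap (8 above and 7 below), against 25.4% (12.9% and 12.5%). The day 14 members were Sfrp2, Sfrp4, Fzd8, Lgr4, Rspo4, Wnt2b and Dkk4, of which Sfrp4 alone passed the test. Rspo4, Wnt2b and Dkk4 lay below the median of the negative controls on all 9 arrays. Fzd8 cleared mock narrowly, with a lowest day 14 value of 6.63 against a highest mock value of 6.62. So did Lgr4 (10.43 against 10.42) and Rspo4 (both 3.12 after rounding). The 95% interval lay wholly within 1 log2 unit of 0 for 41 of the 54 on day 3 and for 47 on day 14. Of all 22206 transcript clusters, the same held for 15251 on day 3 and 17382 on day 14. For the 23 members below the median of the negative controls on every array, a narrow interval says little about a change in RNA.

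Further genes of the pathway were read from lists of secretion, transduction, nuclear, modulator, polarity and target genes. Of 72 measured, 3 rose and 0 fell on day 3 against mock, 0 passed on day 14 against mock with limma (0 at an unadjusted p under 0.05), and 1 fell from day 3 to day 14. Their median difference on day 3 was 0.03. Igfbp4, an IGF-binding protein that also binds Lrp6 and Frizzled, read 8.59, 8.70 and 8.34 on mock, 9.19, 9.92 and 10.24 on day 3 resected and 8.93, 8.81 and 8.74 on day 14 resected arrays. All day 3 values lay above all others. It rose by 1.24 ± 0.26 on day 3 (adjusted p = 0.0116) and fell by 0.96 by day 14 (adjusted p = 0.0485).

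Tpbg, a membrane protein that inhibits Lrp6, rose by 0.94 ± 0.26 on day 3 (adjusted p = 0.0494). Bcl9, which ties β-catenin to its nuclear partners, rose by 0.94 ± 0.25 (adjusted p = 0.0410). These calls were weak. Bcl9 and Tpbg each lost the call in 7 of the 9 fits without 1 array, and Igfbp4 lost it without day 3 resected replicate 2 or 3 on day 3 and in 8 of 9 such fits between the resected groups. After quantile normalization or median centring, 1 of the 72 passed on day 3. The 17 measured target genes had 0 past the threshold in any comparison with limma. Unadjusted p was under 0.05 for 1 on day 3 and 0 on day 14 against mock, and for 5 between the resected groups. Over all transcript clusters the shares were 18.6%, 8.18% and 18.9% in that order. The 5 went both ways: Myc (0.87), Dact2 (0.82) and Nkd2 (0.51) were higher on day 14, Ccn5 (-0.70) and Mmp7 (-0.69) lower. Of the 17 targets, Sp5, Ccn4, Ascl2, Ephb3, Mmp7, Cdx2, Bambi, Dact1 and Dact3 lay below the median of the negative controls on all 9 arrays. Their lack of a call therefore says little about pathway activity. Myc, Nkd1, Nkd2, Ccn5, Cd44, Tnfrsf19 and Dact2 lay above it on all 9. The 2 genes for Wnt secretion, 13 of cytoplasmic transduction and 13 of planar cell polarity had 0 past the threshold in any comparison with limma, and 0, 1 and 0 with an unadjusted p under 0.05 on day 3 against mock.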

How the data were processed

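Per the labels, the authors took RNA from 3 groups of 3 glands. The deposited values are log2 summaries per transcript cluster, which the authors made with RMA in Transcriptome Analysis Console 4.0, per the submitters' processing notes and design text. RMA is built to bring arrays to a common distribution, so a shift shared by all genes may not show. The deposited arrays still differed, with medians of the tested clusters from 5.09 to 5.24. A step that would bring the maximum to 19.93 is not given in the sources used here. The genome build is not given in the sources used here. Of 28846 rows, 6640 controls were left out. Symbols came from the platform's gene table through Entrez identifiers in RefSeq (GRCm38.p6). All 19572 clusters with a symbol matched.

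All 22206 transcript clusters were fitted with limma 3.58.1 in R 4.3.3: a mean per group, 9 arrays in 1 model, empirical Bayes moderation (6 residual and 6.63 prior degrees of freedom). Tests were two-sided, with Benjamini-Hochberg adjustment over all clusters and a threshold of 0.05. Intervals are 95% and unadjusted. The number of arrays limits the precision. The fit was tested on simulated data. Single values per array had an exact permutation test. Alternatives were 2 scalings, 2 filters on dim clusters, robust variances, array weights, only the groups compared, a replicate block, leaving out each array, and an unadjusted rule.

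Same-numbered arrays did not deviate together (correlations of -0.09 to 0.05), so replicate numbers were not taken as pairs. The labels call the replicates biological. The limma p-values weigh a group difference against the spread of arrays within groups, moderated over all clusters. Members and lists were chosen with earlier results of these data known. Named with full values were members past the threshold and a panel of 16, of which Tcf7 was not analysed here. Marker lists for Schwann cells and for basal and myoepithelial cells are given here only. On day 3, 0 of 2 Schwann cell markers passed with limma, and 1 (Sox10, at -0.96 ± 0.39) had an unadjusted p under 0.05. The other, S100b, lay below the median of the negative controls on all 9 arrays, so the list says little about Schwann cells. Of 6 basal and myoepithelial markers 1 fell.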

Additional observations from a re-analysis of the deposited data

Results flagged for a closer look

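Sfrp2, Sfrp4, Fzd9 and Igfbp4 are listed because they passed the limma test of day 14 resected against day 3 resected glands. Both of these groups were resected, so they differ in time since surgery. The mock arrays were all of day 3, so whether a change between the days depends on resection cannot be told. From day 3 to day 14, Sfrp2 changed by -2.74 (adjusted p = 3.05e-04; 95% interval -3.50 to -1.98) and Sfrp4 by -2.23 (adjusted p = 0.00183; -3.02 to -1.45), and each was lower on 3 of 3 day 14 arrays than on any day 3 resected array. Fzd9 changed by 1.01 (adjusted p = 0.0279; 0.48 to 1.55) and was higher on 3 of 3 arrays. Igfbp4 changed by -0.96 (adjusted p = 0.0485) and was lower on 3 of 3. Over the 9 fits without 1 array, the call held in all for Sfrp2 and Sfrp4, in 5 for Fzd9 and in 1 for Igfbp4.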

How the results depend on the processing

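Of 162 member results (54 genes in 3 comparisons), 6 passed the threshold, and 0 of these 6 changed sign under the alternatives run. The 2 day 3 calls of Sfrp2 and Sfrp4, and their 2 calls between the resected groups, held in every alternative that tested these genes. The filter at the 95th percentile of the negative controls removed both, since their means over all arrays are lower. It left 5 members, of which 1 (Lrp6) passed on day 3, 0 on day 14 against mock and 0 between the resected groups. For day 14 against mock, the count of 1 became 0 with array weights, 0 with the replicate block and 0 to 1 without 1 array. The replicate block changed no other member's call, with 2 members called on day 3 and 3 between the resected groups. Of 156 results that did not pass, 5 passed under at least 1 alternative (Sfrp1 in 2 comparisons, Lgr5, Fzd8 and Lrp6), and 70 changed sign under at least 1. The direction of differences near 0 is therefore not settled. Over all transcript clusters the day 14 count of 34 was 58 without mock replicate 3, 20 without day 14 resected replicate 2 and 22 without day 14 resected replicate 3. The unadjusted rule gave 266. The day 3 count of 1393 (1092 higher and 301 lower) was 850 without day 3 resected replicate 3 and 801 (480 and 321) with the filter on bright clusters. It was 1425 (973 and 452) after quantile normalization and 1493 (1013 and 480) after median centring. The count of 1394 between the resected groups was 874 without day 3 resected replicate 3 and 725 with that filter.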
